A study of Saccharomyces cerevisiae with 6 samples.

Results

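The 8 heme synthesis genes HEM1, HEM2, HEM3, HEM4, HEM12, HEM13, HEM14 and HEM15 and the oxygen regulator genes HAP1 and ROX1 were followed in transcriptomes of *S. cerevisiae* with the synthetic chromosome synV. These 10 genes, taken by name, are 10 of the 6442 genes listed, and all 10 were tested. RNA-seq was performed on 3 libraries of each of 2 groups, labelled H0 and S3. Both groups share the synV genotype in the labels, which also call both a genome rearrangement, and both were grown for 12 h in flasks at 30 °C, in YPD by the study's text. H0 was taken as the strain yJBH000 (haploid, synV, with the carotenoid genes *crtE*, *crtI* and *crtYB* and a Leu2 marker at the CAN1 locus). S3 was taken as yJBH012, a single strain picked after SCRaMbLE of yJBH000, the recombination of loxPsym sites by a Cre that galactose (through the GAL1 promoter) and estradiol switch on. The labels do not carry these strain names. They were taken from the study's text, which describes no other transcriptomes. By the study's text, BY4741 (*MATa his3Δ1 leu2Δ0 met15Δ0 ura3Δ0*) was the starting host of most assembly and transformation work, which does not give the parent of these strains. In the S3 libraries VAC8 had 0, 0 and 1 counts against 2216 to 2532 in H0, and its neighbour YEL014C had 0 counts against 82 to 84. This is the segment the study gives as deleted in yJBH012. The study found its loss in other SCRaMbLEd haploids too, so these counts do not single out yJBH012. Since yJBH012 is one clone, the deletion and any other change in that clone cannot be told apart.

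Heme is an iron-porphyrin that carries electrons in the cytochromes, activates oxygen in the cytochrome P450 enzymes of sterol synthesis and reacts with hydrogen peroxide in catalases and peroxidases. In yeast its synthesis starts in the mitochondrion with Hem1, passes through the cytosol with Hem2, Hem3, Hem4, Hem12 and Hem13, and returns to the mitochondrion for Hem14 and Hem15. The coproporphyrinogen and protoporphyrinogen oxidase steps use oxygen, and heme therefore serves the cell as a sign of oxygen. With heme bound, the zinc cluster protein Hap1 activates respiratory and oxidative stress genes and ROX1, and Rox1 represses the hypoxic genes, HEM13 and ROX1 itself among them. The reference strain S288C carries a Ty1 transposon at the end of HAP1 that impairs its product.

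Libraries held 23340054 to 25333938 counts in H0 and 17675299 to 21568860 in S3. The 10 genes took 0.178 to 0.185% of the counts of a library. Levels are given as CPM, which are counts scaled to a common library size with TMM factors. Differences are log2 fold changes of S3 over H0 from edgeR (quasi-likelihood fit), with p-values adjusted by Benjamini-Hochberg for the 5904 genes tested. Replicate 1 of H0 stood apart on the second principal component (16.4, against -7.53 and -9.33 for the other H0 libraries). The a-specific gene STE2 stood at 630 CPM in H0 and 585 in S3, while the alpha-specific STE3 stood at 8.67 and 10.5. The other markers were less even. Among a-specific genes, MFA1 stood at 196 and 393 and MFA2 at 298.5 and 589. BAR1 stood at 182 and 126, STE6 at 305 and 242, and AGA2 at 88.1 and 58.9. The alpha-specific SAG1 stood at 54.6 and 46.3, not far below AGA2. MF(ALPHA)2 stood at 10.9 and 9.21 and MF(ALPHA)1 at 0.433 and 0.462. Nothing in the labels says that the 3 libraries of a group came from separate cultures, so p-values measure the spread between these libraries. In RNA from whole cultures, a lower level in every cell and a smaller share of expressing cells cannot be told apart.

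The promoter windows of HEM2, HEM3, HEM4 and HEM15 are shown first because these heme synthesis genes rose together in S3. Each runs from 250 bases before the annotated start of the gene to 50 bases after it in the RefSeq R64 genome, 5′ to 3′ on the strand of the gene. Capitals mark CCAAT or its reverse complement ATTGG, the box bound by the Hap2/3/4/5 complex.
HEM2 (chrVII:420506-420805, minus strand): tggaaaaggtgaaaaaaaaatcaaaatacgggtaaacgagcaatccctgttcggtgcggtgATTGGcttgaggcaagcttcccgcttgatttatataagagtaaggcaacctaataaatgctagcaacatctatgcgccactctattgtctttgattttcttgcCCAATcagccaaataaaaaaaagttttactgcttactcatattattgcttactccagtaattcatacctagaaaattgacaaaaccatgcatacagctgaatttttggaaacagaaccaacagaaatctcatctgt
HEM3 (chrIV:93696-93995, minus strand): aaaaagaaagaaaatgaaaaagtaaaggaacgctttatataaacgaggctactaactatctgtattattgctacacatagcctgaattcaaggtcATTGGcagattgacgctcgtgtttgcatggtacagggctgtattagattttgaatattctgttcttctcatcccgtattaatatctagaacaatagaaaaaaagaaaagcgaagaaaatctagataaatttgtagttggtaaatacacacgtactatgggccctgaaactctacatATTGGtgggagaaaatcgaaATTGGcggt
HEM4 (chrXV:842567-842866, plus strand): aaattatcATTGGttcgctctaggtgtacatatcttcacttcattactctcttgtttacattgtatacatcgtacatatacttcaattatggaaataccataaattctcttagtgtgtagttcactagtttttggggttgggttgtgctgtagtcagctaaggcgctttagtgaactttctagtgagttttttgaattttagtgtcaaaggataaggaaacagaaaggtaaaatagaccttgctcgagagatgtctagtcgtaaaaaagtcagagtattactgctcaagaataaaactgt
HEM15 (chrXV:662151-662450, plus strand): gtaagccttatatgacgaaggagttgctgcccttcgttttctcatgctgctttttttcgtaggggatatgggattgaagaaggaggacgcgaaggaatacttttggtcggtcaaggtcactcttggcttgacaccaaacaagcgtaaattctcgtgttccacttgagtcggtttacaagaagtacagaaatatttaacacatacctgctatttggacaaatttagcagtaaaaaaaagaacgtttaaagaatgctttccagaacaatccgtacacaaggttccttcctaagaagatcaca

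The window of HEM2 held 2 CCAAT boxes, that of HEM3 held 3, that of HEM4 held 1 and that of HEM15 none. Of the 3 in HEM3, 2 lay after the annotated start, inside the gene. Among the other members, HEM13 and HEM14 held 1 each, that of HEM13 also after the start, so that 5 of the 10 windows had a match, while 43.3% of the windows of all 6001 protein-coding genes had one. The Hap1 site, a direct repeat of CGG with TA between the repeats, was found on neither strand of the 10 windows and in 0.133% of all windows. Only this exact pattern was searched. A pattern so rare could hardly be met in 10 windows, so its absence does not bear on whether Hap1 binds there. The Rox1 core ATTGTT was found in 6 of the 10 windows, namely those of HEM3, HEM13, HEM14, HEM15, HAP1 and ROX1, and in 35.2% of all. The match in HEM15 lay after the start and that in ROX1 spanned it. Its longer form ATTGTTCTC, which contains the core and was searched after the first results were seen, was present in the windows of HEM13, HEM14 and HAP1 and in 0.717% of all. These 3 stretches of 100 bases are shown with the longer form or its reverse complement in capitals, since Rox1 is known to repress HEM13.
HEM13 (chrIV:546414-546513, plus strand): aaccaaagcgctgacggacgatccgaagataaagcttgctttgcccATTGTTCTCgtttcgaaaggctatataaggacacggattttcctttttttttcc
HEM14 (chrV:182469-182568, plus strand): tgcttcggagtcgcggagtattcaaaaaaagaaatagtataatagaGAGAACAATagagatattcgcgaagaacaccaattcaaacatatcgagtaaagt
HAP1 (chrXII:646165-646264, plus strand): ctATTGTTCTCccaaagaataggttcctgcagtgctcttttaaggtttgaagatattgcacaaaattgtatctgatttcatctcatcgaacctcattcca

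The match began 182 bases before the start of HEM13, 85 bases before HEM14 (on the opposite strand) and 248 bases before HAP1. In windows of 500 bases before the start, also chosen after the first results were seen, 8 of the 10 genes held the core (48.9% of all), 3 its longer form (1.13%), 8 a CCAAT box (62.4%) and none the Hap1 site (0.350%). Such matches describe the reference sequence only. HEM14 lies on chromosome V, which is synthetic in both strains, and the sequence of synV itself was not used here. CYC7, HYP2, COX15, PUG1 and PTP3, named below, also lie on chromosome V. How the synthetic sequence bears on the counts of these genes was not tested.

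Heme synthesis genes fell into 2 sets in S3. HEM2, HEM3, HEM4 and HEM15 rose by 1.5- to 1.67-fold, while HEM1, HEM12, HEM13 and HEM14 stayed within a log2 fold change of 0.11 of H0 and did not pass the test. None of the 8 passed as lower. HAP1 rose 1.86-fold, and ROX1 fell to 0.874 of its H0 level. Of the 10 genes, 5 were called higher at an adjusted p under 0.05 and 1 lower, where 34.2% of all tested genes were called higher, 36.2% lower and 70.5% in either direction. In 6 of the 10 genes the groups did not overlap in CPM (5 with S3 above, 1 with S3 below), while this held for 75.5% of all tested genes (36.9% with S3 above and 38.6% below). The median log2 fold change of the 8 heme synthesis genes was 0.35, against -0.01 for all tested genes. This median falls in the gap between the 2 sets, from HEM1 at 0.11 to HEM15 at 0.58, and describes neither set.

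**Figure D1:**
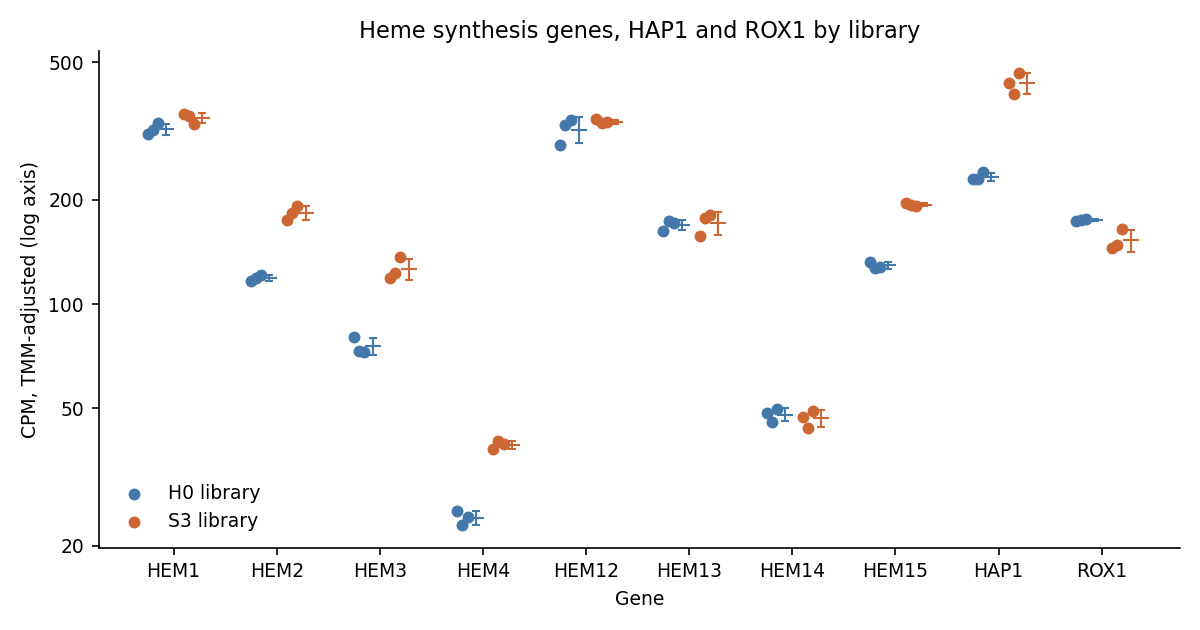
Level of each of the 10 genes in every library, as TMM-adjusted CPM on a log axis, with H0 libraries in blue and S3 libraries in orange. Dots are libraries, bars are the mean and SD of 3 libraries, and the S3 dots lie above all H0 dots for HEM2, HEM3, HEM4, HEM15 and HAP1 and below them for ROX1.

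HEM1 (YDR232W) encodes aminolevulinate synthase, which condenses glycine and succinyl-CoA at the entry of the pathway. It was measured at 311, 318 and 333 CPM in the H0 libraries and at 354, 350 and 332 in the S3 libraries. The lowest S3 library lay below the highest H0 library, and the log2 fold change of 0.11 (standard error 0.06) did not pass the test (adjusted p = 0.138, edgeR; 2 of 3 S3 libraries above every H0 library).

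The genes of the next 3 steps rose. HEM2 (YGL040C), porphobilinogen synthase, had 117, 119 and 122 CPM in H0 and 175, 184 and 192 in S3. Every S3 library was above every H0 library, the log2 fold change being 0.63 (standard error 0.05, edgeR adjusted p = 4.28e-05). HEM3 (YDL205C), the deaminase that links porphobilinogen units into a linear tetrapyrrole, had 80.4, 73.3 and 72.7 CPM in H0 and 119, 123 and 136 in S3. Its groups did not overlap, with replicate 1 the highest H0 library and replicate 3 the highest S3 library, and its log2 fold change was 0.74 (standard error 0.07, edgeR adjusted p = 6.96e-05). HEM4 (YOR278W), uroporphyrinogen III synthase, which closes the ring, had 25.2, 22.9 and 24.2 CPM in H0 and 38.0, 40.2 and 39.4 in S3. These levels were the lowest of the 8 genes in both groups on the CPM scale, and the groups stood apart, with an estimated difference of 0.70 on the log2 scale (standard error 0.06, edgeR adjusted p = 5.14e-05).

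The genes of the other cytosolic steps did not pass the test. HEM12 (YDR047W), uroporphyrinogen decarboxylase, had 288, 330 and 340 CPM in H0 and 342, 334 and 335 in S3. Replicate 1 of H0 was the lowest library, and the groups overlapped (log2 fold change 0.08, standard error 0.07, edgeR adjusted p = 0.372; 1 of 3 S3 libraries above every H0 library). HEM13 (YDR044W), coproporphyrinogen oxidase, is the oxygen-using enzyme whose gene is under Rox1. It had 162, 174 and 172 CPM in H0 and 157, 177 and 181 in S3, which is a log2 fold change of 0.02 (standard error 0.07, edgeR adjusted p = 0.793; 2 of 3 S3 libraries above every H0 library). The S3 libraries enclosed the H0 libraries.

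Of the genes of the last steps, HEM15 rose and HEM14 did not pass the test. HEM14 (YER014W), protoporphyrinogen oxidase, had 48.5, 45.5 and 49.6 CPM in H0 and 47.1, 43.9 and 49.2 in S3, with overlapping groups and a log2 fold change of -0.04 (standard error 0.06, edgeR adjusted p = 0.638; 1 of 3 S3 libraries below every H0 library). In R64 the gene BUD25 overlaps 489 bases of HEM14, or 30.2% of it, on the other strand. BUD25 was listed at 0 counts in all 6 libraries, and how reads in the shared part were counted is not given in the sources used here. HEM15 (YOR176W), ferrochelatase, which inserts the iron, had 133, 127 and 128 CPM in H0 and 196, 193 and 193 in S3. The S3 libraries lay close together (194 ± 1.70 CPM, SD, n = 3) and above every H0 library, and the log2 fold change was 0.58 (standard error 0.05, edgeR adjusted p = 3.13e-05; higher in 3 of 3 libraries).

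HAP1 (YLR256W) had the largest change of the 10 genes under each library scaling tried. It was measured at 229, 230 and 241 CPM in H0 and at 435, 405 and 465 in S3, with no overlap. The log2 fold change was 0.90 (standard error 0.07, edgeR adjusted p = 2.42e-05; higher in 3 of 3 libraries). In R64 the last 100 bases of the annotated HAP1 gene, 2.22% of it, belong to the long terminal repeat of the Ty1 element, where reads of Ty1 copies elsewhere could also be counted. Whether the strains carry this insertion was not tested.

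ROX1 (YPR065W) encodes the HMG-box repressor of hypoxic genes. It had 173, 175 and 176 CPM in H0 and 145, 148 and 165 in S3. Each S3 library lay below each H0 library, by a log2 fold change of -0.19 (standard error 0.06, edgeR adjusted p = 0.0250; lower in 3 of 3 libraries). The call was kept in 2 of the 6 fits that each left out 1 library. Without replicate 2 or 3 of H0 its adjusted p was 0.0675 in both cases, and without replicate 1 or 2 of S3 it was 0.103 and 0.0990 (edgeR). The log2 fold change stayed between -0.25 and -0.15 in these fits and in those without replicate 1 of H0 or replicate 3 of S3.

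The library scaling bore on the genes that did not pass. With total counts in place of TMM factors the median of all genes moved to -0.35 and 1144 genes were called higher and 3401 lower, against 2022 and 2138 with TMM. HEM1, HEM12, HEM13, HEM14 and ROX1 were among the genes then called lower, at log2 fold changes of -0.23, -0.26, -0.31, -0.37 and -0.53. HEM2, HEM3, HEM4, HEM15 and HAP1 were still called higher, at 0.29, 0.41, 0.37, 0.25 and 0.56. A change of scaling moves every gene by a similar amount, so values relative to the median of all genes could hardly move. They went from 0.64 to 0.64 for HEM2, from 0.91 to 0.91 for HAP1 and from -0.18 to -0.18 for ROX1, which is no separate check. Without replicate 1 of H0, 5 of the 10 genes were called higher and 1 lower, as with all libraries.

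**Figure D2:**
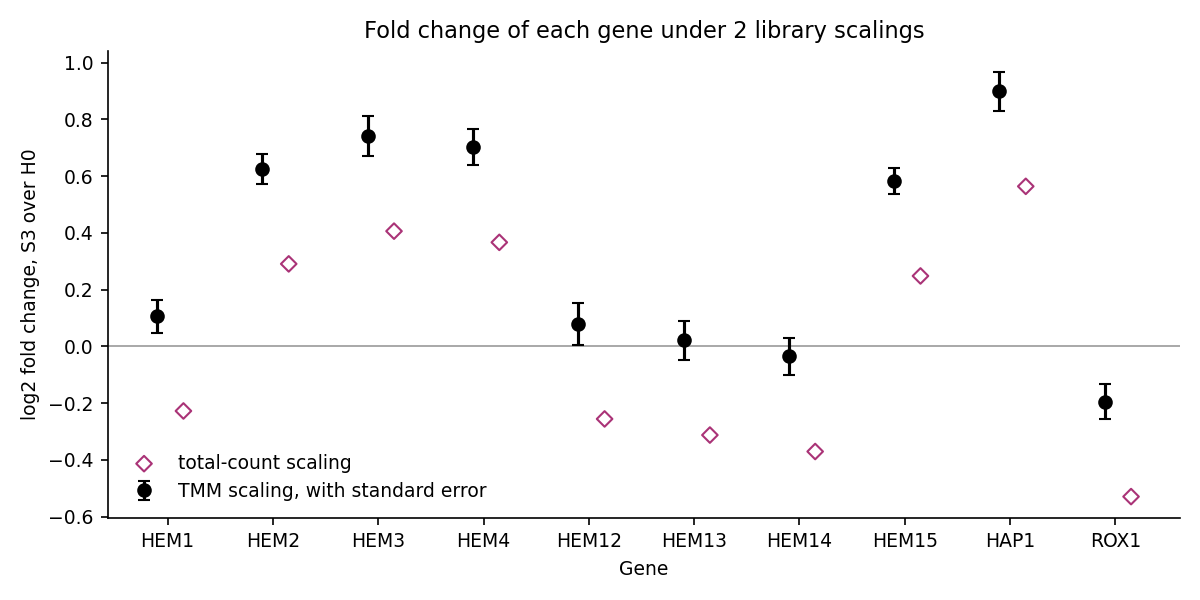
The log2 fold change of S3 over H0 for each of the 10 genes with TMM scaling (black circles, bars are standard errors derived from the edgeR test) and with total-count scaling (open diamonds). Total-count scaling set every gene lower by a similar amount, which turned HEM1, HEM12 and HEM13 below 0 and left HEM2, HEM3, HEM4, HEM15 and HAP1 above it.

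The make-up of the pathway was examined on FPKM, which is scaled for gene length and so allows genes to be compared. In H0 the order was HEM12 (329 ± 24.6 FPKM, SD, n = 3), HEM1 (219 ± 5.71), HEM13 (193 ± 4.80), ROX1 (177 ± 0.845), HEM2 (130.0 ± 1.41), HEM15 (123 ± 4.17), HEM3 (86.2 ± 6.01), HAP1 (58.1 ± 1.24), HEM14 (33.2 ± 1.56) and HEM4 (32.7 ± 1.83). Of these neighbours the ranges of HEM14 and HEM4 overlapped, and the others stood apart. In S3, HEM12 (275 ± 3.48 FPKM) and HEM1 (187 ± 7.34) were again the highest, and HEM14 (25.7 ± 1.29) was now below HEM4 (42.1 ± 1.34) with no overlap. HEM2 (159 ± 6.91), HEM13 (155 ± 11.9) and HEM15 (146 ± 1.56) overlapped as neighbours in S3, as did ROX1 (123 ± 8.26) and HEM3 (114 ± 7.72). HAP1 stood at 85.8 ± 5.32 FPKM. The level of HEM12 was 10.1 times that of HEM4 in H0 and 10.7 times that of HEM14 in S3. HEM14 shares 30.2% of its length with BUD25, and reads left uncounted there would lower its FPKM. Its place beside HEM4, the ratio to HEM12 and its share of the pathway depend on how those reads were counted, which was not tested.

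The 8 heme synthesis genes together took 0.0966, 0.0974 and 0.0991% of the FPKM total of a library in H0. In S3 they took 0.087, 0.0893 and 0.0896%, and this difference was not tested. A share of the whole library is itself a scaling to a total, as with total counts. With TMM factors 4 of the 8 genes were called higher and none lower (edgeR), at log2 fold changes from -0.04 to 0.74. The fall in share was therefore not seen on the TMM scale. Shares within the sum of the 8 genes do not depend on the library scaling. Of the summed FPKM of the 8 heme synthesis genes, HEM2 took 11.5, 11.3 and 11.3% in H0 and 14.0, 14.4 and 14.8% in S3. HEM12 took 26.8, 29.6 and 29.7% in H0 and 25.7, 24.7 and 24.4% in S3. HEM13 went from 16.8% ± 0.31 to 14.0% ± 0.87 (SD, n = 3 each). The shares of HEM2, HEM3, HEM4 and HEM15 were higher in each S3 library than in any H0 library, by 3.04, 2.80, 0.96 and 2.48 percentage points, and those of HEM1, HEM12, HEM13 and HEM14 were lower, by differences of -2.18, -3.75, -2.78 and -0.57. Each exact permutation test (two-sided, n = 3 per group) gave p = 0.1, the smallest that 3 libraries against 3 allow, and 0.1 after Benjamini-Hochberg adjustment over the 8 genes, so that none can pass. Shares of one sum are not independent of each other.

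**Figure D3:**
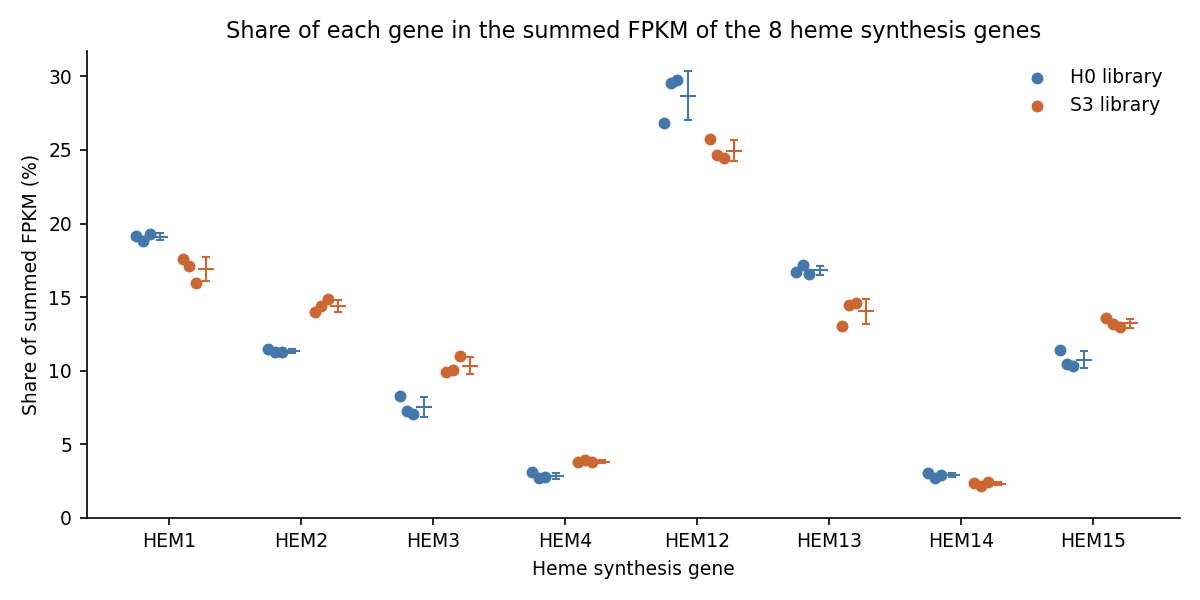
Share of each heme synthesis gene in the summed FPKM of the 8 genes, in percent, for every H0 library (blue) and S3 library (orange), with the mean and SD of 3 libraries. HEM2, HEM3, HEM4 and HEM15 take a larger share in S3 and HEM1, HEM12, HEM13 and HEM14 a smaller one, with no overlap between groups.

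Genes that answer to heme and oxygen were then examined as lists. Over all tested genes the median log2 fold change was -0.01, with 34.2% called higher and 36.2% lower. Without replicate 1 of H0, 2270 genes were called higher and 2360 lower of 5921. Yeast keeps pairs of isoforms of which one is made with oxygen and the other when oxygen or heme is short, the latter through release from Rox1. Among the hypoxic isoforms, ANB1 (translation factor eIF5A, partner of HYP2) rose 2.12-fold, HMG2 (HMG-CoA reductase, partner of HMG1) rose 1.37-fold and COX5B (cytochrome c oxidase subunit, partner of COX5A) rose 1.21-fold. CYC7 (cytochrome c, partner of CYC1) and AAC3 (ADP/ATP carrier, partner of PET9) did not pass, at log2 fold changes of 0.13 each (edgeR adjusted p = 0.629 and 0.644; 0 of 3 S3 libraries above every H0 library for both). Of the aerobic isoforms, CYC1 fell by 0.94 and COX5A by 0.34 on the log2 scale, HMG1 rose by 0.66 and HYP2 by 0.28, and PET9 stood at 0.04. The median was 0.28 for the hypoxic and 0.04 for the aerobic isoforms, against -0.01 for all tested genes.

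Single libraries and the scaling touched several of these genes. CYC7 had 212 CPM in replicate 1 of H0 against 117 and 117 in the other H0 libraries, and it was called higher at 0.47 when replicate 1 was left out (edgeR adjusted p = 2.04e-05; higher in 3 of 3 S3 libraries than in both others). COX5B had overlapping groups, with 207 CPM in replicate 1 of H0 and 206 in replicate 1 of S3. It lost its call without replicate 2 or 3 of H0 or replicate 2 or 3 of S3, with adjusted p from 0.0752 to 0.104 (edgeR). With upper quartile factors COX5B did not pass either (edgeR adjusted p = 0.0712), and it stood at -0.06 with total counts. HYP2 stood at -0.05 with total counts, and HMG2 at 0.11 no longer passed, so that of the hypoxic isoforms ANB1 alone was called higher on that scale.

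Within a library, CYC7 took 69.1, 56.4 and 55.9% of the summed FPKM of CYC1 and CYC7 in H0 and 78.2, 74.0 and 79.1% in S3. COX5B took 31.2, 30.1 and 29.9% of its pair in H0 and 38.9, 39.7 and 41.6% in S3. The share of ANB1 was 2.36% ± 0.33 in H0 and 4.07% ± 0.16 in S3 (SD, n = 3 each). Each of these hypoxic isoforms held a larger share in every S3 library. HMG2 went the other way, from 50.5% ± 2.61 to 46.8% ± 0.89, and AAC3 had overlapping shares of 1.66% ± 0.54 and 1.74% ± 0.18. On the FPKM scale the mean of CYC7 itself did not rise (490 ± 186 to 423 ± 20.7), nor did that of COX5B (458 ± 50.9 to 440 ± 37.4). That scale sets most genes lower in S3, with a median log2 fold change of -0.34 on log2(FPKM + 0.1). On TMM-adjusted CPM the mean of COX5B went from 186 ± 18.3 to 225 ± 19.8. That of CYC7 went from 149 ± 54.6 to 163 ± 8.91, and both had overlapping groups. The partners CYC1 and COX5A fell on both scales. In FPKM, CYC1 went from 304 ± 9.77 to 126 ± 16.4 and COX5A from 1046 ± 80.9 to 657 ± 20.9. ANB1 did rise, from 28.55 ± 5.28 to 48.06 ± 3.01 FPKM. The exact permutation test (two-sided, n = 3 per group) gave p = 0.1, the smallest possible, for COX5B, CYC7, ANB1 and HMG2 and p = 1 for AAC3, with adjusted values of 0.125 and 1 over the 5 pairs. ANB1 shares 91.1% of its aligned bases with HYP2, CYC7 79.2% with CYC1, AAC3 79.4% with PET9, HMG2 81.1% with HMG1 and COX5B 67.4% with COX5A, so reads of one partner could be counted on the other. Among the 10 genes themselves, only HEM14 matched another gene, which was the overlapping BUD25.

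**Figure D4:**
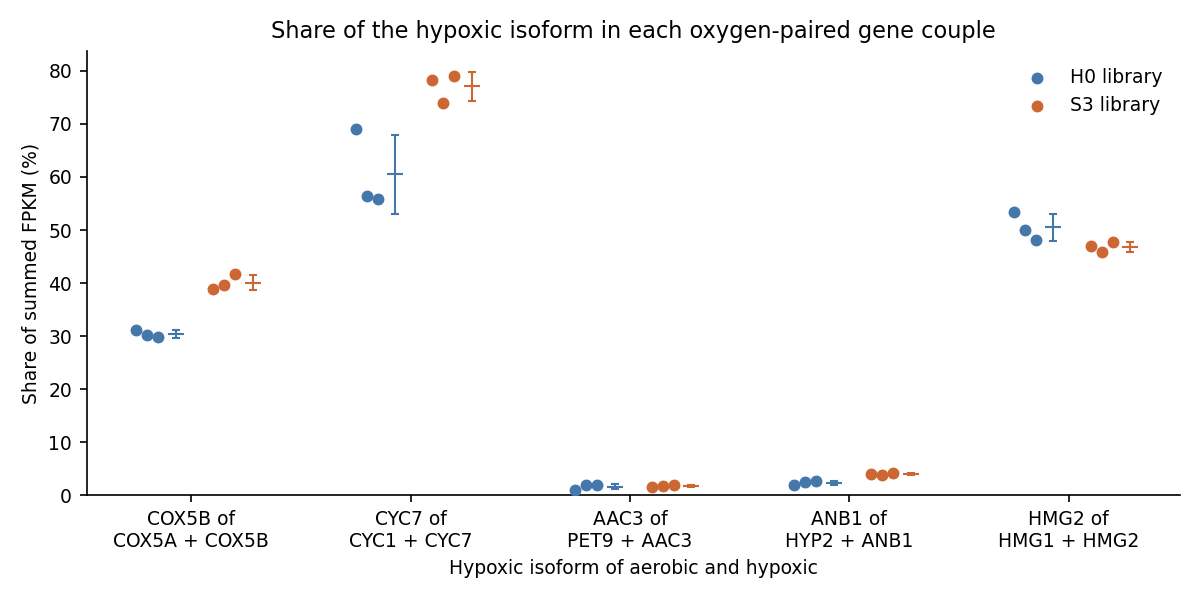
Share of the hypoxic isoform in the summed FPKM of each aerobic and hypoxic pair, in percent, for H0 (blue) and S3 (orange) libraries with the mean and SD of 3 libraries. COX5B, CYC7 and ANB1 hold a larger share in every S3 library than in any H0 library, HMG2 a smaller one, and AAC3 overlaps. The mean FPKM of COX5B and CYC7 did not rise, while that of their partners fell. The median of all genes is also lower in S3 on the FPKM scale, and with TMM factors COX5B was called higher and CYC7 was not.

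Genes known to be activated by Hap1 went both ways while HAP1 itself rose. Of 7 listed, 4 were called higher and 2 lower, with a median log2 fold change of 0.63, where 34.2% of all tested genes were called higher and 36.2% lower, with a median of -0.01. CTT1 (cytosolic catalase) rose from 95.9 ± 36.7 to 248 ± 37.3 CPM (SD, n = 3 each) and CYB2 (lactate cytochrome c reductase) from 49.95 ± 10.5 to 112 ± 11.6, whereas CYC1 fell from 89.3 ± 1.84 to 46.6 ± 5.77. Without replicate 1 of H0, which had the most CTT1 of the H0 libraries at 138 CPM, 5 of the 7 were called higher, as were 2270 of all 5921 genes then tested. The list of genes known to be repressed by Rox1, beside HEM13, holds the 5 hypoxic isoforms already described and OLE1, and is no separate evidence from them. Of these 6, 4 were called higher and none lower, against 34.2% and 36.2% of all tested genes, with a median of 0.36 against -0.01. OLE1, the oxygen-using fatty acid desaturase, stood out among them at 145, 194 and 215 CPM in H0 and 1119, 958 and 1069 in S3. This is a log2 fold change of 2.51 (standard error 0.15, edgeR adjusted p = 1.07e-05; higher in 3 of 3 libraries). On total counts 2 of the 6 were called higher and none lower, and without replicate 1 of H0 5 were called higher, where all genes gave 1144 higher and 3401 lower, and 2270 and 2360.

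The Hap2/3/4/5 complex, which activates respiratory genes through the CCAAT box and whose activity is set by the Hap4 subunit, changed in one subunit above all. HAP4 had 272, 209 and 194 CPM in H0 and 1246, 1139 and 1149 in S3, a log2 fold change of 2.39 (standard error 0.14, edgeR adjusted p = 8.18e-06; higher in 3 of 3 libraries). The 4 subunits had a median of -0.13, against -0.01 for all tested genes. The subunit genes HAP3 and HAP5 fell by 0.41 and 0.30 on the log2 scale, and HAP2 stood at 0.05. HAP2 was called higher at 0.16 without replicate 1 of H0 and lower at -0.29 with total counts. Of 10 other oxygen and sterol factors, 3 were called higher and 3 lower (median 0.06), near the 34.2% and 36.2% of all tested genes. UPC2, which induces sterol uptake and synthesis when sterols are short, was the one that changed by more than 2-fold, from 46.2 ± 3.58 to 126 ± 11.5 CPM (SD, n = 3 each). Of all tested genes, 10.7% were called higher and 4.98% lower by more than 2-fold.

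Supply, transfer and breakdown of heme and its precursors were covered by 14 genes, of which 5 were called higher and 7 lower (median log2 fold change -0.22, against -0.01 for all tested genes). Of all tested genes 34.2% were called higher and 36.2% lower. COX15 (heme A synthase) rose 2.10-fold, and PUG1 (plasma membrane protoporphyrin and heme transporter) rose 2.79-fold from a low level of 19 to 29 counts in the H0 libraries. MET1, which draws uroporphyrinogen III into siroheme, fell to 0.490 of its H0 level. Of 14 hemoproteins, 5 were called higher and 5 lower, at a median of -0.00408, near the 34.2% and 36.2% and the median of -0.01 of all tested genes. CCP1 (mitochondrial cytochrome c peroxidase) fell from 787 ± 94.0 to 380 ± 2.03 CPM, while CTT1 and CYB2 rose as given for the Hap1 genes, with which this list shares 6 members. Without replicate 1 of H0, 7 of the hemoproteins were called higher and 6 lower, and with total counts 4 higher and 8 lower, beside 2270 and 2360 of all genes and 1144 and 3401.

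**Figure D5:**
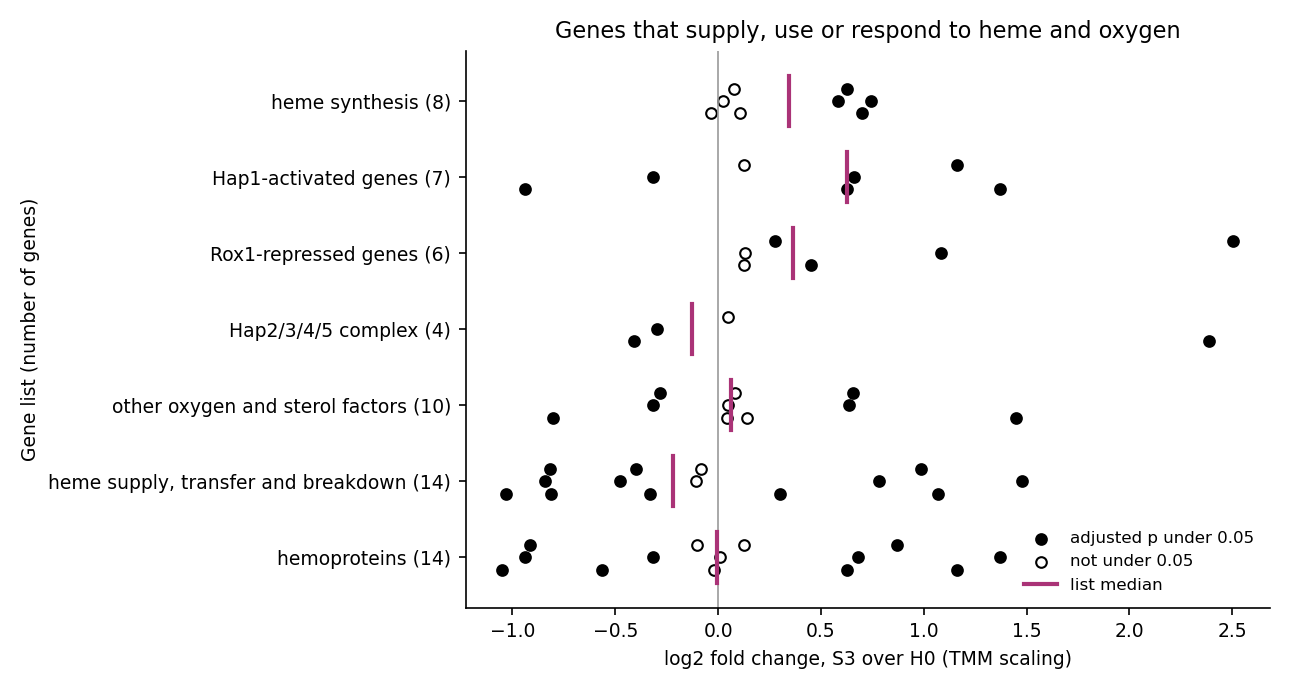
Log2 fold change of S3 over H0 (TMM scaling) for every gene of the 7 lists, with the number of genes in parentheses. Filled dots have an adjusted p under 0.05, open dots do not, purple lines are list medians, and genes in several lists are drawn in each. The heme synthesis genes split into 4 open dots near 0 and 4 filled dots between 0.58 and 0.74, and single genes of the other lists reach 2.39 (HAP4) and 2.51 (OLE1).

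The genes whose profile over the 6 libraries was nearest to that of HAP1, ROX1 and HEM13 were sought among the 5161 genes that averaged 4 or more in log2 CPM, by the root mean square difference of log2 CPM centred per gene. HAP1 was nearest to PTP3 (0.0282), AIR2 (0.0356) and NSE3 (0.0403). For ROX1 these were RDI1 (0.0265), ATX2 (0.0275) and SUV3 (0.0281). HEM13 was nearest to DCD1 (0.0230), ERG5 (0.0282), a heme-bearing sterol desaturase, and DJP1 (0.0311).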

How the data were processed

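Total RNA of yeast was sequenced in 6 libraries, prepared with the NEBNext Ultra kit. Whether counting used the strand is not given in the sources used here. The authors deposited read counts per gene, without normalization, and FPKM values computed from the same counts. The submitters' processing notes name HTSeq 0.6.1 and DESeq 1.18.0, without their roles. The aligner and genome build are not given in the sources used here. Gene lengths implied by counts and FPKM were those of R64 for 10 of 10 genes, so R64 was used for names, positions and sequences. Of 6442 identifiers, 6436 matched its gene table, and the 6 others took at most 0.0120% of the counts of a library. No columns of other samples were present. No replicates were duplicates (chi-square over its degrees of freedom, 7.13 to 85.4).

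Differences in counts were tested by the quasi-likelihood method of edgeR 4.0.16 (R 4.3.3, genes kept by filterByExpr, TMM factors from 0.885 to 1.14, glmQLFit and glmQLFTest, no replicate block). A gene was called at a Benjamini-Hochberg adjusted p under 0.05. Standard errors were derived from the same test, as the absolute log2 fold change over the square root of its F statistic. The biological coefficient of variation was 0.0995. Log2 CPM used a prior count of 2. Exact permutation tests used scipy 1.17.1, and similar genes were sought with BLAST 2.17.0. The alternatives were DESeq2 size factors, upper quartile factors, total counts, no filter on low counts, at least 10 counts in every library, the DESeq2 1.42.0 test, limma 3.58.1 on log2(FPKM + 1) or with 0.1 as the pseudocount, a replicate block, an adjusted p under 0.01, shares of counts in place of FPKM, and each library left out. The fit was tested on simulated data in which no genes or few genes changed, as many up as down. Such data do not test the choice of library scaling. The members, lists and rules were chosen with earlier results of these data known. Named beside the members are both genes of each isoform pair, the Hap2/3/4/5 subunits, list genes called with a log2 fold change beyond 1, and the 3 nearest profiles of HAP1, ROX1 and HEM13. Of 6 a-specific genes 2 were called higher and 3 lower, and of 4 alpha-specific genes none higher and 1 lower. Promoter windows were cut from the R64 genome, since no promoter table was used. Reads carry no molecular identifiers.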

Additional observations from a re-analysis of the deposited data

How the results depend on the processing

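HEM2, HEM3, HEM4, HEM15 and HAP1 were called higher under each alternative, so that 5 genes were called higher throughout. The number called lower was 1, and it was 5 with total counts, with log2(FPKM + 1) and with log2(FPKM + 0.1), 0 at an adjusted p under 0.01, and 0 to 1 with a library left out. Under these same scalings the median of all genes lay between -0.35 and -0.33, and 1144, 1147 and 1143 genes were called higher and 3401, 3383 and 3382 lower, against 2022 and 2138. In that order of scalings HEM1 stood at -0.23, -0.23 and -0.23, HEM12 at -0.26, -0.25 and -0.25, HEM13 at -0.31, -0.31 and -0.32, and HEM14 at -0.37, -0.36 and -0.37. PET9 was -0.29, -0.29 and -0.29, HYP2 -0.054, -0.053 and -0.053, COX5B -0.060, -0.057 and -0.057, CYC7 -0.21, -0.15 and -0.15, AAC3 -0.20, -0.15 and -0.16, and HAP2 -0.29, -0.28 and -0.28. HEM13 was -0.016 with upper quartile factors. ROX1 missed an adjusted p of 0.01 at -0.19. With single libraries left out, HEM13 ran from -0.0098 to 0.091, HEM14 from -0.072 to 0.015, ROX1 from -0.25 to -0.15, CYC7 from -0.019 to 0.47, AAC3 from -0.10 to 0.29 and HAP2 from -0.036 to 0.16. The list medians relative to all genes then ran from 0.22 to 0.48 for hypoxic isoforms and from 0.32 to 0.50 for Rox1-repressed genes, and the share of AAC3 differed by -0.226 to 0.262 percentage points. The cause of these shifts was not tested, beyond the change of scaling itself.

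With replicate numbers as a block, log2 fold changes were 0.62 for HEM2, 0.90 for HAP1 and -0.20 for ROX1 (edgeR adjusted p = 5.4e-04, 3.57e-04 and 0.0414), and the block changed no call among the 10 genes. COX5B lost its call at an adjusted p of 0.0683. Deviations of same-numbered libraries correlated at -0.01, 0.08 and 0.08, and 4 of 6 libraries were nearest to their own number, so the numbers were not taken as pairs. PUG1 had 19 to 47 counts in a library, and depth limits its value.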
